A study of Mus musculus with 4 samples.

Results

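The genes described here encode the enzymes that build sterols and fatty acids, the proteins that regulate them, and a few proteins that move sterols between membranes. They number 37 of the 23420 genes measured, and comprise 18 sterol enzymes, 10 fatty acid enzymes, 5 regulators and 4 genes of sterol transport. The members were chosen by symbol from a list, with no threshold on any value, but the list was drawn up with results of these data known. The measured values behind that choice are the gentamicin responses of non-hair cells, from which the study had singled out sterol synthesis, so that comparison, and the difference between populations which contains it, are given below as descriptions. The methyl oxidase Msmo1 is listed under its older symbol Sc4mol.

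Cochleae of Atoh1-GFP mice of the CD1 strain, in which a green fluorescent reporter marks the sensory hair cells, were dissected on postnatal day 1 and cultured overnight. Some cultures then received 0.5 mM gentamicin, an aminoglycoside antibiotic that is toxic to hair cells, for 3 h, and control cultures received none. Dissociated cells were sorted by fluorescence into GFP-positive hair cells and GFP-negative non-hair cells, which include supporting cells and surrounding tissue, and all 4 groups therefore come from the transgenic animals and from sorted cells. Polyadenylated RNA was sequenced in 3 replicates per group, with 22400490–28152018 reads recovered on genes per replicate. A value below is a normalized read number, that is, reads on a gene scaled per replicate by the authors, with 1 added. All 37 members were among the 16077 genes with at least 100 reads over the 12 replicates, and the lowest count of any member in any replicate was 222 reads.

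Cholesterol is made from acetyl-CoA through mevalonate, squalene and lanosterol. Transcription of these enzymes is driven by the sterol regulatory element binding proteins (SREBPs), which are held in the endoplasmic reticulum by Insig proteins and are carried to the Golgi by the escort protein Scap, where proteases release the active fragment when membrane sterols are low. Srebf2 encodes the form that acts mainly on sterol genes and Srebf1 the forms that act mainly on fatty acid genes, while sterol excess acts through liver X receptors (LXR) on export genes such as Abca1. In the cochlea, membrane cholesterol is known to modulate the motor protein prestin of outer hair cells.

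Promoter sequence shows one feature that the choice of members did not use. RefSeq windows on assembly GRCm38.p6, from 250 bases before to 50 bases after the start site, were given for 29 of the 37 members, with 37 windows in all. The 8 members without a window, Fdps, Fdft1, Sqle, Scd1, Scd2, Fads1, Stard4 and Abcg1, were not searched. In the others, exact letters were searched on both strands. The CCAAT box, which binds the factor NF-Y, is spelled CCAAT, the E-box CACGTG, the GC box GGGCGG and a strict form of the sterol regulatory element TCACNCCAC. The stretches below hold the 250 bases before the start site on the plus strand, with matches of the CCAAT box on either strand, of the E-box and of the sterol regulatory element in capitals. Hmgcs1 (chr13:119690101-119690350) is shown as the only one of the 29 with a match of the strict sterol regulatory element. Mvk (chr5:114444019-114444268) and Idi1 (chr13:8885356-8885605) are shown as the enzymes with the highest estimates in non-hair cells. Insig1 (chr5:28071162-28071411) is the regulator with the widest difference between populations, and Mylip (chr13:45389492-45389741) the member that rose in hair cells.
Hmgcs1: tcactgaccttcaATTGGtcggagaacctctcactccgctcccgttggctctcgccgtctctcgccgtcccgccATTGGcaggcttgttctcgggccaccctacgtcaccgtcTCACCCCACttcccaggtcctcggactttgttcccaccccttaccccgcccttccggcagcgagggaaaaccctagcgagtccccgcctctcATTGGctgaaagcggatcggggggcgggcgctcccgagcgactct
Mvk: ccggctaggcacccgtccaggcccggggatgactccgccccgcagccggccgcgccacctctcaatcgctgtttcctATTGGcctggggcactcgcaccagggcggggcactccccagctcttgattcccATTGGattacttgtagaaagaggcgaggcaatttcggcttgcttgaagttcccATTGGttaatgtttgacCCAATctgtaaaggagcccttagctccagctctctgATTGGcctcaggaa
Idi1: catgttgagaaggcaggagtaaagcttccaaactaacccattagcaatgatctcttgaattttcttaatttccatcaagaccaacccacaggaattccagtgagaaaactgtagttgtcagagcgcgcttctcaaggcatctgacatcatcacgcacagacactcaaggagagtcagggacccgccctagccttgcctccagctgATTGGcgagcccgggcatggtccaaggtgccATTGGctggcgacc
Insig1: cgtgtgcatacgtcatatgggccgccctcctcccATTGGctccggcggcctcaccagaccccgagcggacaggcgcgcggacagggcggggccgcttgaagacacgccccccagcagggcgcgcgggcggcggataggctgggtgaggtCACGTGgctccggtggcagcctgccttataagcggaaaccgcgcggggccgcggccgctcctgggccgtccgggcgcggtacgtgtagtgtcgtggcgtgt
Mylip: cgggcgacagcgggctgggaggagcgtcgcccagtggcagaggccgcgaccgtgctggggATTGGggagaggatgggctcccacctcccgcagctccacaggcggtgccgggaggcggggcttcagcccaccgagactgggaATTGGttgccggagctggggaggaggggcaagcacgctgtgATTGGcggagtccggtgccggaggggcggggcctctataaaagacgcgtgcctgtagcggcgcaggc

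A CCAAT box was present in 23 of the 29 members with a window (79.3%), against 41.1% of all 27025 genes with windows and 42.3% of the 11652 such genes that were tested here. Among sterol enzymes 14 of 15 held it, and among fatty acid enzymes 4 of 7. Of the 49 matches in member windows, 45 lay before the start site, and the median position was -62 bases. An E-box was found in 7 members (24.1%) against 8.09% of all genes and 11% of the genes tested. The 7 were Hsd17b7, Sc5d, Dhcr7, Elovl5, Scap, Insig1 and Abca1. A GC box was found in 24 members (82.8%), against 38.2% of all genes and 65.7% of the genes tested. The strict sterol regulatory element was found in 1 member (3.45%) against 1.44% of all genes and 1.47% of the genes tested, at 137 bases before the start of Hmgcs1, where it overlapped no other match. The CCAAT box was also present in Mylip, whose response differed from that of the enzymes. These are matches of letters in these windows and were not tested.

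**Figure D1:**
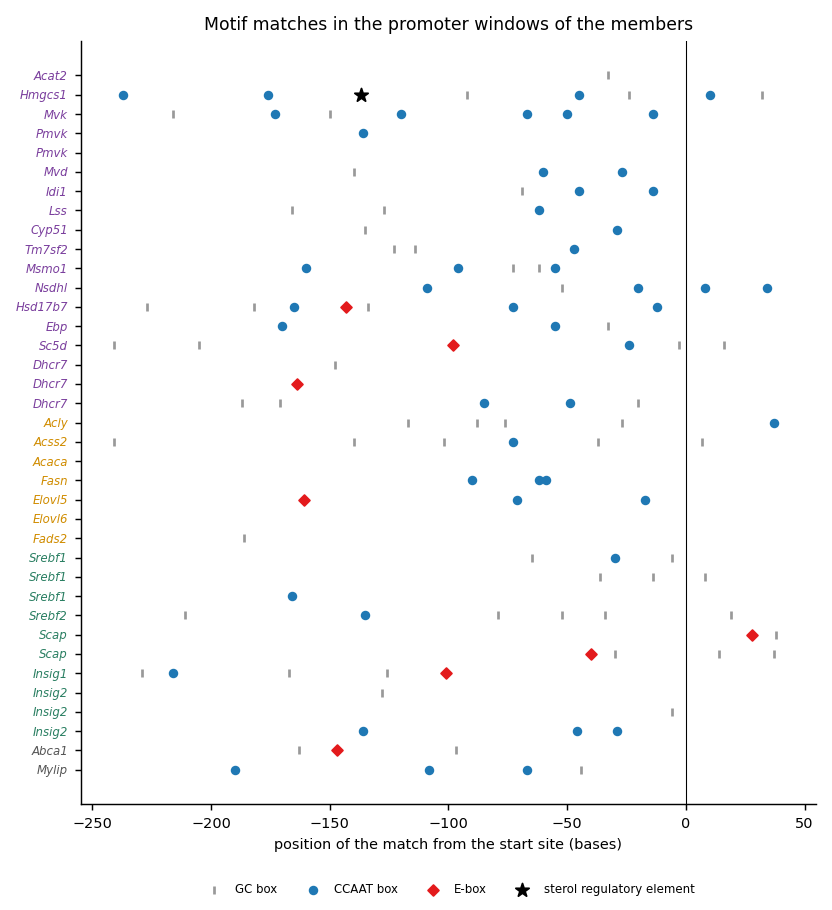
Positions of letter matches in the 37 promoter windows of members, one line per window, in bases from the start site (0). Gene names are coloured by list (purple sterol enzymes, orange fatty acid enzymes, green regulators, grey sterol transport). CCAAT boxes (blue) lie mostly between the start site and 150 bases before it, and the single match of the strict sterol regulatory element (star) is that of Hmgcs1.

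The labels of the sorted populations were checked against marker genes. Summed normalized read numbers, without the offset, of 6 hair cell markers (Atoh1, Pou4f3, Myo6, Lhx3, Barhl1 and Gfi1) were 5861–6135 in control hair cells and 180.6–222.2 in control non-hair cells. The sum of 6 supporting cell markers (Sox2, Prox1, Fgfr3, Hes5, Jag1 and Lfng) was 1211–1407 in control hair cells and 588.7–1040 in control non-hair cells, so that list was not lower in the GFP-positive samples.

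Without drug, the populations already differed in most members, as they did in most genes tested. Of the 37, 16 were higher and 11 lower in control hair cells than in control non-hair cells by the criteria used throughout, an unadjusted limma p under 0.01 with a fold above 1.2. That is 73% of members, and the share among all genes tested was 65.8% (28.1% higher and 37.7% lower in hair cells). Of these 27 members, 24 met the criteria in each of the 6 fits that left out 1 control replicate, and the exceptions were Acat2, Nsdhl and Srebf1. The 18 sterol enzymes included 9 that were higher and 3 that were lower in hair cells, and the 10 fatty acid enzymes included 2 that were higher and 4 that were lower.

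Hsd17b7 (chromosome 1, 169949535–169969241), a ketosteroid reductase of cholesterol synthesis that also acts on sex steroids, differed most. Its normalized read numbers were 308, 319 and 378 for control hair cells and 27.04, 25.6 and 29.8 for control non-hair cells, 12.2 times higher in hair cells (log2 difference 3.61, standard error 0.16, limma adjusted p = 3.52e-09). The groups lay far apart and no other sterol enzyme came near this difference. Acss2 (chromosome 2, 155517948–155585724), which makes cytosolic acetyl-CoA from acetate, had 254, 264 and 265 against 34.02, 37.04 and 36.5, a fold of 7.28 (log2 difference 2.86, standard error 0.09, limma adjusted p = 1.26e-10). The sterol exporter Abcg1 was 3.82 times higher in hair cells (log2 difference 1.93), and Fads2, a desaturase of polyunsaturated fatty acids, 2.47 times (log2 difference 1.31). The kinase Mvk, the epoxidase Sqle, the reductase Tm7sf2, the sterol carrier Stard4 and the escort protein Scap were also higher in hair cells, with log2 differences of 1.09, 1.02, 1.04, 1.16 and 1.01.

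In the other direction, the elongase Elovl5 (chromosome 9, 77917364–77984519) had 20.4, 22.5 and 26.5 in control hair cells and 92.8, 107 and 106 in control non-hair cells, 4.43 times lower in hair cells (log2 difference -2.15, standard error 0.14, limma adjusted p = 8.02e-08). Scd1, a desaturase that makes monounsaturated fatty acids, was 3.74 times lower (log2 difference -1.90), and the sterol exporter Abca1 3.23 times lower (log2 difference -1.69). The relatives Fads1 and Fads2 lay on opposite sides, since Fads1 was lower in hair cells by a log2 difference of -1.36. Abca1 and Abcg1 lay on opposite sides as well. Both Insig genes were lower in hair cells, with log2 differences of -0.92 for Insig1 and -0.68 for Insig2, whereas Srebf1, Srebf2 and Scap were higher, with 0.31, 0.77 and 1.01. Of the members that were not called in this comparison, Lss, Acly, Acaca, Fasn and Scd2 had log2 differences of -0.03, 0.03, -0.06, 0.04 and -0.04. The other 5 that were not called were Mvd, Idi1, Fdft1, Cyp51 and Ebp, with -0.21, 0.28, 0.13, 0.32 and -0.32. The remaining calls upwards were Pmvk, Fdps, Sc4mol, Nsdhl and Dhcr7, with log2 differences of 0.46, 0.86, 0.45, 0.47 and 0.65, and those downwards were Acat2, Hmgcs1, Sc5d, Elovl6 and Mylip, with -0.44, -0.67, -0.68, -0.47 and -0.53. Nsdhl was no longer called with the replicate number as a block, since its unadjusted p then lay above 0.01 (limma adjusted p = 0.0154).

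Levels between genes were compared per kilobase of annotated exon, with the offset taken off. The brain-type desaturase Scd2 had the highest level in both control populations, 291 per kb in hair cells and 299 per kb in non-hair cells. It was followed in hair cells by Hsd17b7 (65.5 per kb), Fads2 (54.8 per kb) and Acly (53.5 per kb), which cleaves citrate to acetyl-CoA, and in non-hair cells by Acly (52.5 per kb), Fads1 (41.3 per kb) and Fasn (41.1 per kb), the fatty acid synthase. Lanosterol synthase, Lss, had the lowest level in both, 3.28 and 3.32 per kb. This rank depends on the length used, the union of all annotated exons of a gene, which is 10787 bases for Lss. Sc5d in hair cells (3.40 per kb) and Acss2 in non-hair cells (3.43 per kb) came close. Before division by length Ebp was lower, with mean normalized read numbers of 11.8 and 14.7, against 36.4 and 36.8 for Lss.

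**Figure D2:**
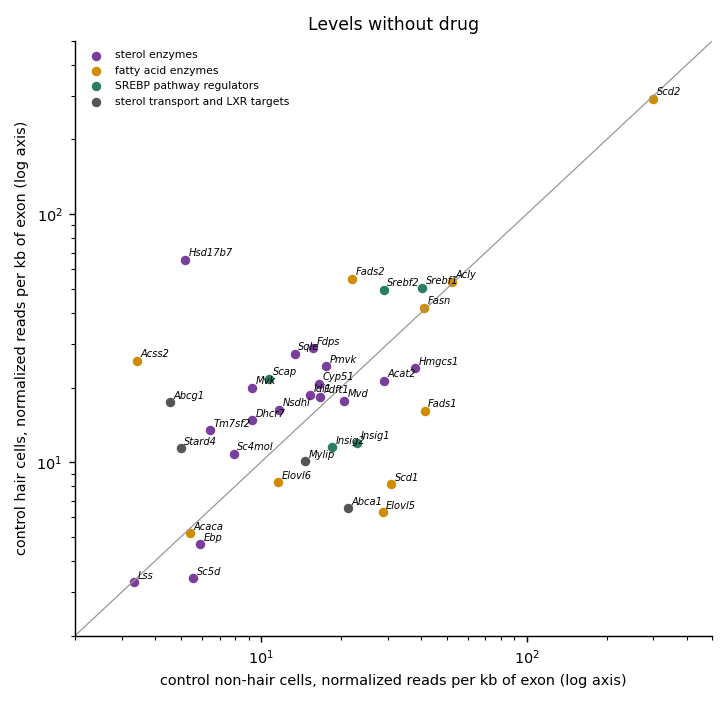
Mean normalized reads per kb of exon of each member in control non-hair cells (x) and control hair cells (y), 3 replicates each, both on log axes, coloured by list; the line marks equal levels. Hsd17b7 and Acss2 lie farthest above the line and Elovl5 and Scd1 far below it, and Scd2 is the highest in both.

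In hair cells 3 h of gentamicin lowered 7 members and raised 1. The 7 were Mvd, Tm7sf2 and Dhcr7 among the sterol enzymes, Srebf2, Scap and Insig1 among the regulators, and the sterol carrier Stard4, and the member that rose was Mylip. No fatty acid enzyme was called at these criteria. The 8 members make up 21.6%, against 27.5% of all genes tested (12.7% up and 14.8% down), so members were not called more often than genes at large. The median log2 fold change was -0.18 over members and -0.09 over all genes tested, and 31 of 37 estimates lay below 0, against 59.9% of all genes. These values depend on the scaling. With scores rescaled to equal totals the medians were -0.09 over members and -0.01 over all genes tested, and 23 of 37 estimates lay below 0, against 51.3% of all genes. In 16 members the 3 treated replicates all lay below the 3 controls, a pattern shown by 33.1% of all genes. By a Benjamini-Hochberg adjusted p under 0.05 from limma, with no fold threshold, 9 members fell, among them also Acly and Fads1, and 2 rose, Mylip and the elongase Elovl6, where 18.4% and 14.8% of all genes did.

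The regulators held the clearest falls in hair cells. Insig1 (chromosome 5, 28071363–28078662), the SREBP retention protein whose own gene is a classic SREBP target, had 38.2, 40.9 and 35.2 in the control replicates and 20.97, 21.7 and 23.9 after gentamicin. All 3 treated values lay below all 3 controls, a 1.72-fold fall (log2 fold change -0.78, standard error 0.12, limma adjusted p = 9.32e-04). Srebf2 (chromosome 15, 82147181–82205379) had 363, 380.4 and 328 in controls and 245, 271 and 265 after the drug, again without overlap (log2 fold change -0.45, standard error 0.10, limma adjusted p = 0.00511). For Scap (chromosome 9, 110333288–110384950) the values were 163, 166 and 159 and 132, 128 and 138 (log2 fold change -0.30, standard error 0.06, limma adjusted p = 0.00381), a small difference with little spread between replicates. Srebf1 (chromosome 11, 60199089–60222581), with 303, 291 and 263 against 239, 239.8 and 275, and Insig2 (chromosome 1, 121304353–121332589), with 39.5, 38.97 and 44.04 against 37.03, 40.7 and 36.1, were not called. In each of these genes treated and control replicates overlapped, and the log2 fold changes were -0.18 and -0.10 (limma adjusted p = 0.126 and 0.367).

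Mylip (chromosome 13, 45389742–45412022), a ubiquitin ligase induced by LXR that marks lipoprotein receptors for degradation, had 36.3, 30.3 and 34.1 in control hair cells and 63.6, 72.9 and 59.7 in treated ones. It rose 1.95-fold (log2 fold change 0.96, standard error 0.11, limma adjusted p = 1.47e-04), and in non-hair cells it had 52.7, 49.9 and 42.6 in controls and 54.1, 47.2 and 46.6 after gentamicin, where the groups overlapped (log2 fold change 0.03). The sterol exporters Abca1 and Abcg1, which LXR also induces, were not called in hair cells. Abca1 had a log2 fold change of -0.43 (standard error 0.21, limma adjusted p = 0.131) and Abcg1 of -0.07 (standard error 0.22, limma adjusted p = 0.829). Stard4 (chromosome 18, 33199355–33213862), which carries sterols between membranes, fell from 64.7, 67.3 and 61.6 to 49.8, 54.7 and 48.7 without overlap (log2 fold change -0.34, standard error 0.09, limma adjusted p = 0.0153).

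**Figure D3:**
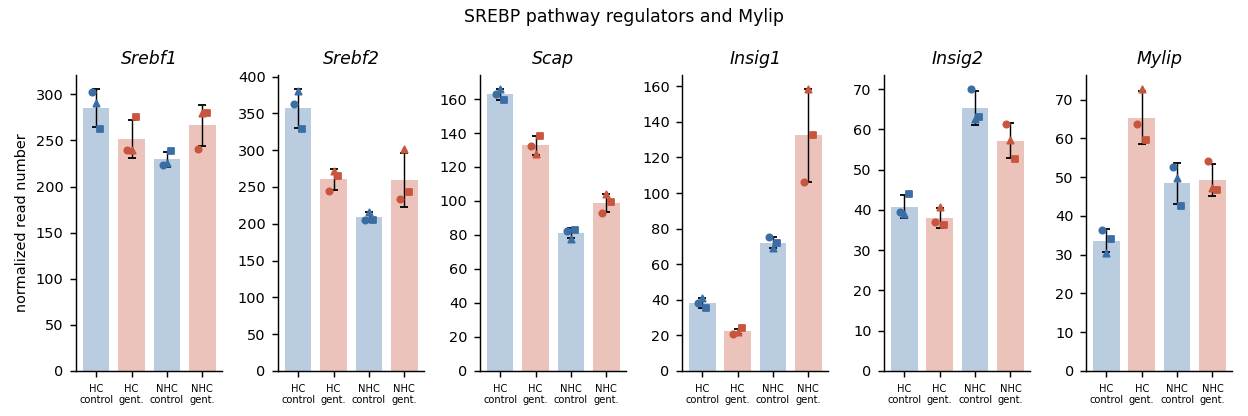
Normalized read numbers of the 5 regulators and Mylip in the 4 groups (HC hair cells, NHC non-hair cells, gent. gentamicin); bars are means, whiskers SD and points the 3 replicates (circle 1, triangle 2, square 3). Insig1, Srebf2 and Scap are lower after gentamicin in hair cells and higher in non-hair cells, and Mylip is higher in treated hair cells.

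Of the 18 sterol enzymes 3 were called down in hair cells (16.7%), near the 14.8% of all genes tested that were. Mvd (chromosome 8, 122433601–122443422), which decarboxylates mevalonate diphosphate, had 35.7, 35.5 and 30.7 in controls and 22.8, 19.5 and 26.2 after gentamicin (log2 fold change -0.58, standard error 0.15, limma adjusted p = 0.0132). Tm7sf2 (chromosome 19, 6062821–6068373), a sterol reductase that acts after lanosterol, had 63.7, 58.8 and 57.9 against 44.8, 47.3 and 37.996 (log2 fold change -0.48, standard error 0.13, limma adjusted p = 0.0169). Dhcr7 (chromosome 7, 143823145–143848410), the reductase deficient in Smith-Lemli-Opitz syndrome, had 86.1, 99.8 and 75.01 against 61.3, 73.3 and 52.9 (log2 fold change -0.48, standard error 0.15, limma adjusted p = 0.0339). In all 3 genes the treated replicates lay below the controls, although the Dhcr7 groups nearly met. The other 15 sterol enzymes had log2 fold changes from -0.39 (Fdps) to 0.12 (Cyp51), with none past the criteria, and the 10 fatty acid enzymes from -0.37 (Fads1) to 0.29 (Elovl6).

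Insig1, Srebf2, Scap and Mylip were called in every one of 6 fits, each with 1 sample of hair cells left out. Without control replicate 1 the count of members fell from 8 to 4, since Mvd, Tm7sf2, Dhcr7 and Stard4 were no longer called, and without control replicate 2 it was 5, without Mvd, Dhcr7 and Stard4. Tm7sf2 was also lost without gentamicin replicate 3, Mvd without gentamicin replicate 2, and Dhcr7 and Stard4 without gentamicin replicate 1 or 3. With scores rescaled to equal totals, 5 members were called, 3 down and 2 up, and Tm7sf2, Dhcr7, Scap and Stard4 were lost. That scaling also turned the balance over all genes tested from 46.1% of calls up to 63.6% up.

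Markers of other cells moved between the hair cell groups as well. The summed level of the 6 supporting cell markers was 537.7–1024 after gentamicin, below the controls, with 2 of 6 called down. Those 2 were Hes5 and Lfng, named after their values were seen, with log2 fold changes of -2.02 and -1.17. Sox2, Prox1, Fgfr3 and Jag1 were not called, with -0.57, -0.77, -0.27 and -0.82. Of all genes tested in hair cells, 14.8% were called down and 12.7% up. The sum of 6 Schwann cell and glia markers went from 202.7–250.6 to 102–170.2 (2 of 6 down) and that of 6 mesenchyme markers from 460.4–596.8 to 333.3–385.3 (2 of 6 down). Of 6 endothelial markers 1 was down, with sums of 34.65–47.85 and 26.62–37.2. The sum of 6 macrophage markers went from 4.655–5.562 to 14.66–21.34, with 1 of 6 called up. That marker was Cd68, a lysosomal glycoprotein, named after its values were seen (log2 fold change 2.52), and without it the sum of the other 5 was 3.318–4.087 in controls and 3.917–4.747 after the drug. None of the markers of these lists was at 0 in every replicate of a hair cell group. Their part in the falls of members in hair cells was not tested, and in sorted populations fewer cells of a type and less RNA per cell cannot be told apart. The hair cell markers themselves summed to 5680–6124 after the drug, with 0 of 6 called. Most of that sum was Myo6 (4009, 4330 and 4032). Atoh1, named after its values were seen, lay above its controls without overlap, a pattern shown by 21.7% of all genes tested. Its log2 fold change was 0.50 (limma adjusted p = 0.0703), and the other hair cell markers had from -0.08 (Myo6) to 0.18 (Gfi1).

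In non-hair cells most members lay above their controls. The criteria were met by 20 of 37 (54.1%), all 20 of them higher after gentamicin, where 5.44% of all genes tested met them (3.18% up and 2.26% down). Because sterol synthesis was singled out from this comparison, nothing is read from that share. Estimates lay above 0 for 33 of 37 members (48.8% of all genes), with a median log2 fold change of 0.42, against -0.01 over all genes. In 26 members all 3 treated replicates lay above all 3 controls, a pattern shown by 10.1% of all genes, and in 1 member, Insig2, all 3 lay below (7.68% of all genes). By list, 13 of 18 sterol enzymes, 3 of 10 fatty acid enzymes, 3 of 5 regulators and 1 of 4 transport genes met the criteria. Each sterol enzyme had an estimate above 0, from 0.10 for the kinase Pmvk to 0.87 for Mvk. By an adjusted p under 0.05 from limma, 5 members remained, namely Mvk, Idi1, Sqle, Acaca and Insig1, all 5 upwards, where 0.342% of all genes passed and 0.236% did so upwards. The spread behind these values is shared by all 4 groups, hair cells included. With only the 2 non-hair cell groups fitted, Mvk, Idi1 and Sqle each had a limma adjusted p of 0.391. With the replicate number as a block their limma adjusted p values were 0.0686, 0.0622 and 0.0543.

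The early steps, from acetyl-CoA to the isoprenoid diphosphates, began with Acat2 (chromosome 17, 12942890–12960747), the cytosolic thiolase, which had 75.5, 71.2 and 77.6 in control non-hair cells and 101, 144 and 97.2 after gentamicin (log2 fold change 0.58, standard error 0.13). Hmgcs1 (chromosome 13, 119690379–119708260), which condenses acetyl-CoA to HMG-CoA and whose promoter holds the sterol regulatory element printed above, had 161, 181 and 186 and 230.0, 288 and 246 (log2 fold change 0.53, standard error 0.11). Mvk (chromosome 5, 114444269–114460591), mevalonate kinase, had 30.01, 22.8 and 24.3 and 41.7, 61.4 and 39.6 (log2 fold change 0.87, standard error 0.15). The control and treated values of these 3 genes did not overlap, and replicate 2 of the treated group was the highest each time. Idi1 (chromosome 13, 8885501–8892451), which isomerises isopentenyl diphosphate, had 56.3, 50.02 and 57.9 in controls and 83.4, 118 and 88.8 after the drug (log2 fold change 0.81, standard error 0.11). For Fdps (chromosome 3, 89093588–89101959), farnesyl diphosphate synthase, the values were 69.98, 63.3 and 67.8 and 85.5, 138 and 92.1 (log2 fold change 0.62, standard error 0.15). Treated replicates 1 and 3 of Fdps lay close above the controls and replicate 2 far above them. Mvd was higher in all 3 treated replicates as well, but with a log2 fold change of 0.42 it missed the criteria, as did Pmvk.

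The committed steps of sterol synthesis followed the same course. Fdft1 (chromosome 14, 63145150–63179578), squalene synthase, had 71.7, 70.6 and 71.9 in controls and 92.6, 128 and 89.8 after gentamicin (log2 fold change 0.51, standard error 0.13). Sqle (chromosome 15, 59315077–59331192), squalene epoxidase and a rate-limiting step, had 69.4, 71.7 and 85.1 and 112, 147 and 119 (log2 fold change 0.74, standard error 0.10). Lss (chromosome 10, 76531588–76557138) had 38.2, 35.7 and 36.6 and 50.5, 66.3 and 51.6 (log2 fold change 0.60, standard error 0.13). The 3 genes had separate groups, with the treated values of Sqle farthest from their controls. Cyp51 (chromosome 5, 4081145–4104746), lanosterol demethylase, had 72.5, 72.03 and 76.9 and 91.4, 136 and 113 (log2 fold change 0.60, standard error 0.12).

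Of the enzymes that finish the sterol ring, Sc4mol (chromosome 8, 64718139–64733792) and Nsdhl (chromosome X, 72918557–72958514), which act in turn to remove methyl groups, had 43.6, 50.5 and 54.6 and 34.5, 30.5 and 38.4 in controls. After gentamicin they had 65.9, 83.9 and 73.2 for Sc4mol (log2 fold change 0.58, standard error 0.11) and 46.5, 68.9 and 49.2 for Nsdhl (log2 fold change 0.66, standard error 0.14). Hsd17b7, whose control level was so much lower here, went from 27.04, 25.6 and 29.8 to 42.01, 56.1 and 46.3 (log2 fold change 0.80, standard error 0.16). It stayed far below its hair cell level. Dhcr7 had 51.1, 58.3 and 55.6 in controls and 67.998, 97.1 and 72.5 after the drug (log2 fold change 0.51, standard error 0.15). The isomerase Ebp, the desaturase Sc5d and the reductase Tm7sf2 missed the criteria, with log2 fold changes of 0.29, 0.29 and 0.27.

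Fatty acid enzymes moved less than sterol enzymes in non-hair cells, with a median log2 fold change of 0.30 against 0.58. The 3 that met the criteria make up the route from citrate to palmitate. Acly (chromosome 11, 100476353–100528000) had 259, 265 and 309.7 in controls and 327, 378 and 330.4 after gentamicin (log2 fold change 0.31, standard error 0.09). Acaca (chromosome 11, 84129672–84401651), acetyl-CoA carboxylase, had 93.8, 89.3 and 96.95 and 129, 149 and 121 (log2 fold change 0.50, standard error 0.09). Fasn (chromosome 11, 120805846–120824547) had 439, 405 and 509 and 572, 716 and 660.1 (log2 fold change 0.53, standard error 0.11). In each the treated values lay above the controls, by least in Acly. The desaturases and elongases, which modify the finished chain, had estimates from 0.11 (Elovl5) to 0.42 (Scd1), and Acss2 had -0.02, and none of these met the criteria. Whether the lists differ was not tested, and it was sterol synthesis that the study had singled out from this same comparison.

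Regulators in non-hair cells were led by Insig1, which went from 75.3, 68.99 and 71.9 in controls to 106, 159 and 133 after gentamicin (log2 fold change 0.86, standard error 0.12). Its relative Insig2, which is not a classic SREBP target, had 70.1, 62.6 and 63.2 and 61.4, 57.4 and 52.7 and lay on the other side of its controls (log2 fold change -0.19, standard error 0.08). Srebf2 had 204, 217 and 206 and 234, 302 and 244 (log2 fold change 0.31, standard error 0.10). The treated values of Srebf2 lay above the controls, with replicate 2 apart from the others. Scap had 82.3, 77.8 and 83.1 and 93.1, 104 and 99.4 (log2 fold change 0.28, standard error 0.06). Srebf1 had 223, 226 and 239 and 240.2, 279.5 and 279 and missed the criteria (log2 fold change 0.21, standard error 0.09). Stard4 had 27.1, 28.2 and 31.3 in controls and 37.9, 44.3 and 36.4 after the drug, without overlap (log2 fold change 0.45, standard error 0.09). Abca1 and Abcg1, whose products export sterols, had log2 fold changes of -0.05 and -0.29, and their groups overlapped.

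**Figure D4:**
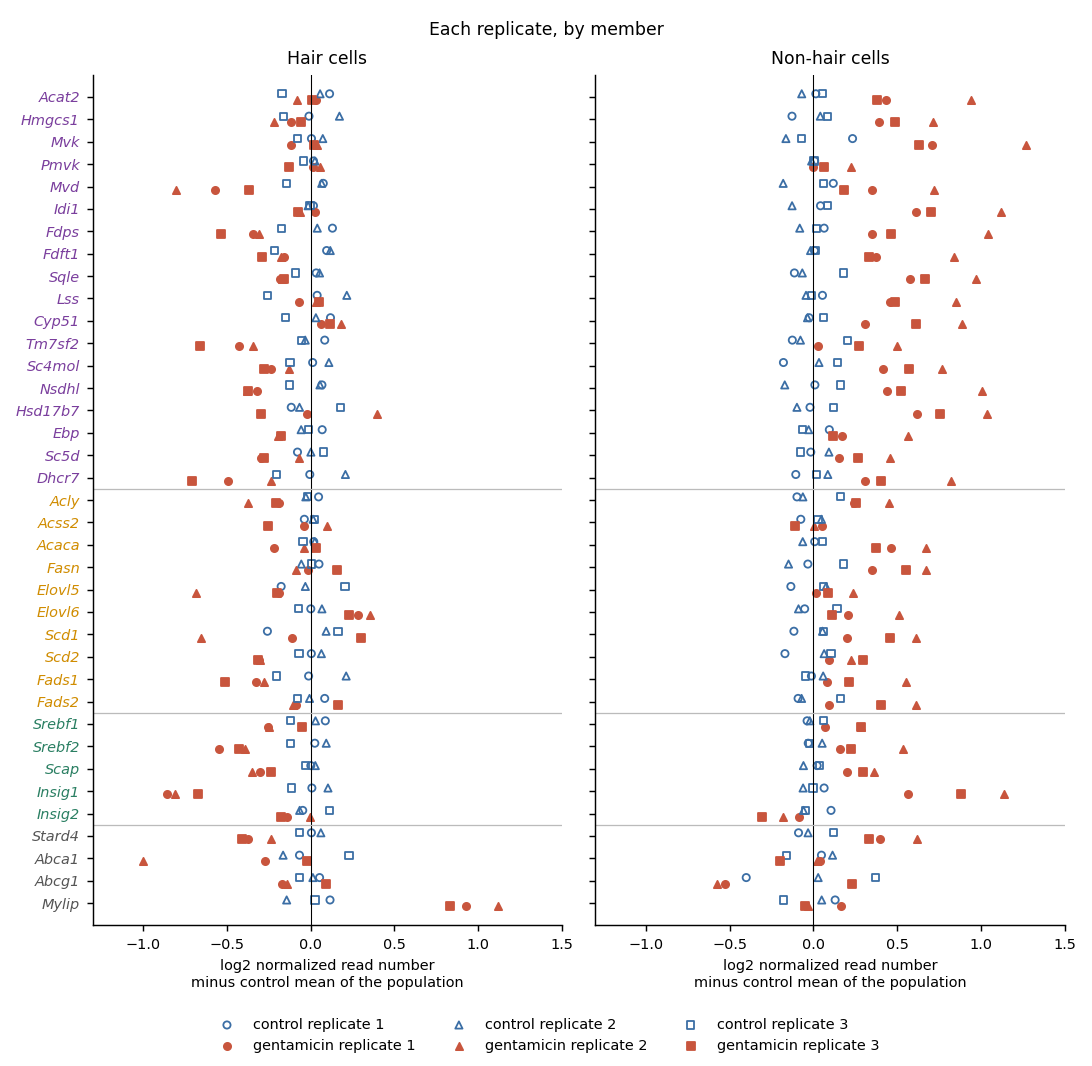
Log2 normalized read number of every member in every replicate, minus the mean of the 3 controls of the same population (hair cells left, non-hair cells right); open blue symbols are controls and filled red symbols gentamicin, with circles, triangles and squares for replicates 1, 2 and 3. In non-hair cells most treated values lie to the right of 0, and replicate 2 lies farthest right in 31 of 37 members.

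One treated non-hair cell sample stood apart from its group in these genes. Gentamicin replicate 2 had the highest of the 3 treated values in 31 of 37 members and in 26 of 28 enzymes, where it was the highest in 40.5% of all genes tested. The median log2 distance of the 18 sterol enzymes from the control mean was 0.38, 0.84 and 0.47 in treated replicates 1, 2 and 3. Without replicate 2 the criteria were met by 16 members, all 16 up, with Dhcr7, Acly, Srebf2 and Scap lost, and the median over members went from 0.42 to 0.26, and that over sterol enzymes from 0.58 to 0.42. The same replicate had the lowest treated value for 6 of 6 supporting cell markers, where it was the lowest in 36.8% of all genes tested, and the sums of these markers were 647.8, 362 and 825.5 in treated replicates 1, 2 and 3. In hair cells, gentamicin replicate 2 was also the lowest for 6 of 6 of them (30.2% of all genes), with sums of 789.8, 537.7 and 1024. The part of the supporting cell markers in the member values of non-hair cell replicate 2 was not tested. Dhcr7 and Srebf2 were also lost without any 1 of the 3 controls, Acly without control replicate 1 or 2 and Scap without control replicate 2, and the other 16 members met the criteria in all 6 such fits.

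Some endothelial markers moved with gentamicin in the same population. The sum of 6 of them went from 300.9–354.4 to 434.5–540.6, and 3 of 6 were called up. Those were Cldn5, Egfl7 and Sox18, with log2 fold changes of 1.12, 1.38 and 1.52. Of all genes tested in non-hair cells, 3.18% were called up and 2.26% down. Pecam1, Cdh5 and Emcn were not called, with -0.27, 0.22 and 0.22. The sum of 6 supporting cell markers was 588.7–1040 in controls and 362–825.5 after the drug, with 0 of 6 called, and sums of Schwann cell and glia markers (488–719.7 and 488–655.1), of macrophage markers (26.13–46.17 and 28.21–41.55) and of mesenchyme markers (3878–4728 and 4086–5262) overlapped, with 0 of 6 called in each. Of 3 melanocyte markers, 1 was tested and was called down, the sums being 8.34–13.14 and 5.448–9.32. Hair cell markers summed to 193.4–284.7 after the drug, with 0 of 6 called. The part of these markers in the higher values of members was not tested.

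Set side by side, 5 of the 37 members met the criteria downwards in hair cells and upwards in non-hair cells, namely Dhcr7, Srebf2, Scap, Insig1 and Stard4. Of all genes tested, 0.124% did. That count is a description only, because its upward part is the comparison behind the choice of members, where 54.1% of members were called up. With 1 of the 12 samples left out the count was 2–5, and it was 2 with scores rescaled to equal totals. Insig1 was the only member among them in all 12 such fits and under that scaling. Without gentamicin replicate 2 of the non-hair cells Dhcr7, Srebf2 and Scap were lost and Fdps and Nsdhl were added, and without control replicate 1 of the hair cells 2 members were left, Scap and Insig1. The same 2 were left without control replicate 2, or gentamicin replicate 1 or 3, of the hair cells, and Insig1 and Stard4 without control replicate 2 of the non-hair cells. Without control replicate 1 or 3 of the non-hair cells 3 were left, Scap, Insig1 and Stard4. Insig1 had the widest difference, with a log2 fold change of -0.78 in hair cells and 0.86 in non-hair cells. The difference between the responses was estimated directly, as the response of hair cells minus that of non-hair cells. Of the 37 members 21 had an adjusted p under 0.05 for it (13.4% of all genes did), 20 with a lower response in hair cells (6.57% of all genes) and 1, Mylip, with a higher one (6.85%). Nothing is read from these shares, because the difference contains the comparison behind the choice of members. Beyond the direction that both comparisons give, it was -1.64 for Insig1 (standard error 0.18), -1.01 for Fdps (standard error 0.22), -1.01 for Nsdhl (standard error 0.19) and 0.931 for Mylip (standard error 0.15). For Elovl6 it was 0.0152 (standard error 0.14), since Elovl6 had log2 fold changes of 0.29 and 0.27.

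**Figure D5:**
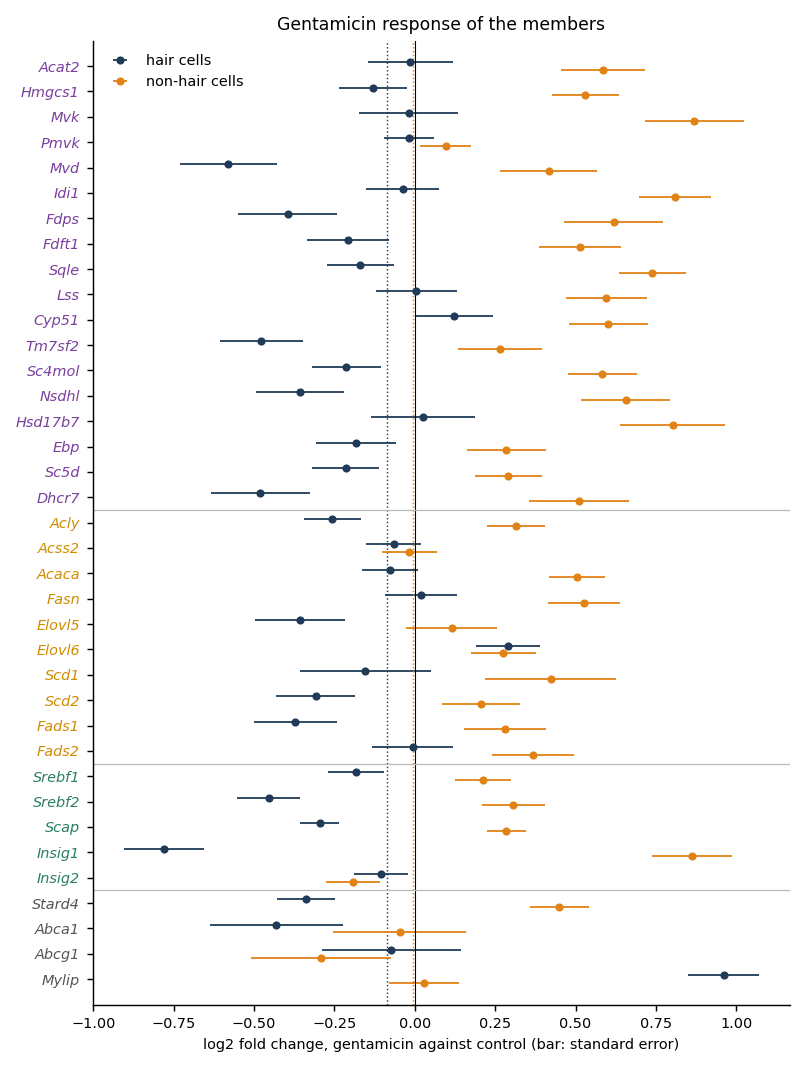
Log2 fold change of each member with gentamicin (x) in hair cells (dark) and non-hair cells (orange), with standard errors from limma over 3 replicates per group; dotted lines mark the median of all genes tested in each population. Of the 18 sterol enzymes 15 lie below 0 in hair cells (11 with scores rescaled to equal totals), and all 18 lie above 0 in non-hair cells, and Mylip is the highest point in hair cells.

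Of 33 other genes of sterol and lipid metabolism that are not members, 1 rose and 7 fell in hair cells (24.2%, against 27.5% of all genes tested). Ggps1, which makes geranylgeranyl diphosphate, rose (log2 fold change 0.32, limma adjusted p = 0.00623). The 7 that fell were the lipoprotein receptor Scarb1 (-0.92), the sterol esterifying enzyme Soat1 (-0.70), the lysophospholipid acyltransferase Lpcat3 (-0.56), the lysosomal sterol carrier Npc2 (-0.48), the reductase Tecr of fatty acid elongation (-0.37), the acyl-CoA synthetase Acsl3 (-0.35) and the LXR gene Nr1h2 (-0.31), given as log2 fold changes. In non-hair cells 3 met the criteria upwards, the acetoacetyl-CoA synthetase Aacs (0.43), the SREBP-cleaving protease Mbtps1 (0.39) and Lpcat3 (0.39), and 1 downwards, Nr1h2 (-0.32), which is 12.1% of the 33, against 5.44% of all genes tested, with 9.09% upwards against 3.18%. Their median log2 fold change was -0.04 in hair cells and -0.01 in non-hair cells, and that of all genes tested was -0.09 and -0.01. Lpcat3 had 104, 99.4 and 101 and 65.6, 66.9 and 74.3 in control and treated hair cells, and 45.8, 43.1 and 47.4 and 52.4, 70.2 and 57.7 in control and treated non-hair cells, with separate groups in both.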

How the data were processed

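Per the labels and the study's methods, polyadenylated RNA of sorted cells was sequenced as 50 bp single-end reads, trimmed and aligned to mm10 with TopHat 2 in PartekFlow. The authors deposited 1 normalized score per gene and replicate for 23420 genes. The methods name RPKM, but these deposited scores are reads scaled per replicate with 1 added and show no division by length. The scaling factor, annotation and strandedness are not given in the sources used here. After the offset was taken off, 71.2–72.4% of low values were whole multiples of the smallest step (within 0.02 reads), so no count model was used.

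Groups follow the labels. Log2 scores of the 16077 genes with at least 100 recovered reads were fitted with limma 3.58.1 (R 4.3.3, Python 3.11.15, pandas 2.3.3), with all 4 groups in 1 model, two-sided, with trended empirical Bayes and Benjamini-Hochberg adjustment over all genes; the code was tested on simulated data. The study's criteria were used for calls, that is, p under 0.01 before adjustment and a fold above 1.2. Median reads on genes were 25116409 per replicate, and replicates differed by more than counting noise. Replicates are biological per the study. Hair cell and control contrasts share the control hair cell samples, and the contrasts of control populations and of non-hair cells share the control non-hair cells.

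Replicate numbers paired the control populations (deviations of same-numbered hair and non-hair cell controls correlated across genes at 0.216, 0.316 and 0.200), and the replicate block lost 1 member there, Nsdhl (p = 0.0104 against 0.00586 without it, limma).

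Members and lists were chosen with earlier results of these data known. Replicate values are printed for members called without overlap in a gentamicin contrast and for the 5 regulators; Acss2, Elovl5 and Lpcat3 were added after their values were seen. Positions and exon lengths are from GENCODE M21, promoters from RefSeq. Exons of Fdps, Fdft1, Scap, Hmgcs1 and Tm7sf2 overlap other annotated genes over 12.1–26.7% of their length, and Acat2 has a close copy, Acat3, so reads of these genes may be shared. Some genes of the pathway are not reported here.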

Additional observations from a re-analysis of the deposited data

Results flagged for a closer look

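For 21 members the response to gentamicin differed between the populations (adjusted p under 0.05 by limma for the difference itself). Given as the log2 fold change in hair cells minus that in non-hair cells, the early sterol enzymes had -0.66 (Hmgcs1), -0.886 (Mvk), -0.996 (Mvd), -0.847 (Idi1) and -1.01 (Fdps). Later sterol enzymes had -0.722 (Fdft1), -0.908 (Sqle), -0.743 (Tm7sf2), -0.797 (Sc4mol), -1.01 (Nsdhl), -0.775 (Hsd17b7), -0.506 (Sc5d) and -0.991 (Dhcr7). The fatty acid enzymes among them had -0.571 (Acly), -0.581 (Acaca) and -0.652 (Fads1). Regulators and transport genes had -0.76 (Srebf2), -0.58 (Scap), -1.64 (Insig1), -0.788 (Stard4) and 0.931 (Mylip). This difference contains the non-hair cell comparison from which sterol synthesis was singled out, so the values describe the members and are no independent evidence about them. Of the 21 members, 15 had an adjusted p under 0.05 in all 12 fits that left out 1 replicate. Mvk and Fdft1 had it in 8 of the 12 fits and Tm7sf2 in 9. Hsd17b7, Sc5d and Fads1 had it in only 1, 2 and 3 of them.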

How the results depend on the processing

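With 3 replicates per group an exact permutation test of a single gene cannot go below p = 0.10, so calls rest on limma's pooled spread. In hair cells the count of 8 members became 5 when reads were scaled by their total and 2 with a fold above 1.5; it was 4–9 with 1 replicate left out and 7–11 under the other alternatives. In non-hair cells the count of 20 became 5 at an adjusted p under 0.05 and 9 with a fold above 1.5; it was 16–23 with 1 replicate left out and 16–21 otherwise. Over all genes tested in non-hair cells, 875 met the criteria, against 383 with the 2 groups fitted alone, 55 at the adjusted p, 219 with the higher fold and 411–1570 with 1 replicate left out. In hair cells all genes called numbered 4418, and 2074 with the higher fold. Between control populations 24–26 members differed with 1 control left out, and for the difference in response 15–23 passed. Of 130 values of named genes in hair cells 111 kept their side of the threshold and 19 were weaker; in non-hair cells 266 of 286 kept it, 19 were weaker and 1 was stronger. None of these estimates changed direction. Scaling by total reads moved the share of upward calls in non-hair cells from 58.5% to 69.2%. Why single calls were lost was not tested.

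With the replicate number as a block, 9 members were called in hair cells, 21 in non-hair cells, 26 between control populations and 23 in the difference in response. Deviations of same-numbered control and treated samples correlated across genes at 0.0369, 0.0523 and 0.0369 in hair cells and at 0.208, -0.232 and 0.683 in non-hair cells. In these, 2 of 3 and 1 of 3 samples correlated best with their own number. Between treated hair cells and treated non-hair cells the values were 0.377, -0.0386 and -0.0179, and 1 of 3 did. With 3 samples per group these values cannot decide whether same-numbered samples share more than a number.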
